A study of Mus musculus with 12 samples.

Results

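The genes described here are 36 genes for chaperones, folding enzymes, ER-associated degradation and stress sensing in the endoplasmic reticulum (ER). They were chosen by name, for what their products do, from the 18193 genes with a probe set of their own on the Affymetrix Mouse430_2 array. Earlier results of these data were known when the list was drawn up, so its shares beside those of all genes are a description. All 36 had a probe set, and 35 passed the filter on dim probe sets that left 12609 genes for testing. The study hybridised total RNA of 4 mouse cell types to 12 arrays, 3 arrays per cell type, on the C57BL/10.RIII background. EncT arrays hold encephalitogenic T cells with the surface marker CD4+, and Treg arrays hold regulatory T cells given as CD4+,TGFbeta+. The nFoxA1Treg arrays carry titles of neuron induced FoxA1Treg, while their cell type label reads natural FoxA1Treg, with the markers CD4hi,PD-L1hi. The iFoxA1Treg arrays are titled IFN-beta induced FoxA1Treg and share the markers CD4hi,PD-L1hi. Age, sex, dose, time, pooling and the source of each replicate are not given in the labels.

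The ER is where secreted and membrane proteins enter the secretory route, fold, form disulfide bonds and receive glycans. Proteins that do not fold are sent back to the cytosol and degraded, which is called ER-associated degradation. When unfolded proteins accumulate, the sensors encoded by Ern1, Atf6 and Eif2ak3 start the unfolded protein response, and the transcription factors XBP1 and ATF6 raise chaperone and degradation genes. In lymphocytes this response is best known from plasma cells, which secrete antibody in bulk, and activated T cells also use it when they make cytokines and surface receptors.

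Of these genes, 14 carry a binding motif of that response close to the start of transcription, and the stretches below show it for 7 genes whose values the results turn on. The promoters are from RefSeq, build GRCm38.p6, run 5′ to 3′ on the gene's own strand, and capitals mark the fixed bases of the motif. For Hspa5, Pdia6, Syvn1, Creld2, Calr and Derl3 the motif is the ER stress response element (ERSE), which is CCAAT and CCACG with any 9 bases between them, read forward in the first 3 and on the opposite strand in the others. For Herpud1 it is the related element ERSE-II, which is ATTGG and CCACG with 1 base between them. All 7 stretches lie upstream of the annotated start, outside the transcript.
Hspa5: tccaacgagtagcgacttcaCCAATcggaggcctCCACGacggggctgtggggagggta
Pdia6: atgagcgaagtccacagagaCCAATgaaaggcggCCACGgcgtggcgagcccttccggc
Syvn1: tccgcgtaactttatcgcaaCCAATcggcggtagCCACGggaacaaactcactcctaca
Creld2: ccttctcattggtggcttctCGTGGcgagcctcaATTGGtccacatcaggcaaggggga
Calr: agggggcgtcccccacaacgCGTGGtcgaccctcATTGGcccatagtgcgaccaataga
Derl3: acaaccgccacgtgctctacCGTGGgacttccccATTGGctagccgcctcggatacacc
Herpud1: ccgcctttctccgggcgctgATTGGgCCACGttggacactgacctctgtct
In the same order, the stretches are chr2:34772005-34772063 on the plus strand, chr12:17266471-17266529 plus, chr19:6046512-6046570 plus, chr15:88819500-88819558 plus, chr8:84847055-84847113 minus, chr10:75893222-75893280 plus and chr8:94386357-94386407 plus. The motif began 65 bases before the start of Hspa5, 98 before Pdia6, 44 before Syvn1, 126 before Creld2, 162 before Calr, 156 before Derl3 and 52 before Herpud1.

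RefSeq promoters of 300 bases, from 250 before to 50 after the start, were at hand for 31 of the 36 genes. Searched on both strands, ERSE was found in 9 of the 31 genes (Hspa5, Hsp90b1, Dnajc3, Calr, Canx, Pdia6, Creld2, Syvn1 and Derl3). It was found in 0.119% of all 32851 promoters, and in 0.137% of all 27025 genes with a promoter. Hsp90b1, the ER member of the Hsp90 family, held 2 such sites. ERSE-II was found in Dnajb11 and Herpud1, in 0.0365% of all promoters and in 0.0444% of all genes with a promoter. The unfolded protein response element TGACGTGG, which XBP1 and ATF6 are known to bind, was found in Txndc5, Txndc11 and Sec24d. Its share was 0.676% of all promoters and 0.714% of all genes with a promoter. No site of one motif overlapped a site of another in these genes, with 0 overlaps in 14 genes that held any motif. A match says only that these letters stand in the window.

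Across the series, arrays of one group correlated at 0.828 to 0.857 over all probe sets, EncT, nFoxA1Treg and Treg arrays correlated with each other at 0.815 to 0.847, and the arrays labelled iFoxA1Treg correlated with the rest at 0.683 to 0.739. The arrays labelled iFoxA1Treg went against their CD4hi label, with a mean Cd4 value of 4.24 on the log2 scale where the EncT mean was 10.57, the nFoxA1Treg mean 10.44 and the Treg mean 10.39. Their Cd274 value, the gene of PD-L1, was 10.01 against 7.31 to 7.63, and the nFoxA1Treg arrays had no more Cd274 than the EncT arrays (7.34 against 7.63). The arrays labelled iFoxA1Treg also had Xist values of 1.55 to 3.08, against at least 10.60 on the other 9 arrays, so sex and group cannot be told apart there. Of the T cell markers tested, 9 of 10 were lower on them than on EncT arrays, while 7 of 7 B cell and 7 of 7 macrophage markers and 7 of 9 plasma cell markers were higher. Several of the latter, such as Blk, Lyz2 and Jchain, passed the filter on dim probe sets only through the arrays where they were high, so these counts are a description. Foxa1 and Foxp3 did not pass the filter on dim probe sets. All directions for that group are therefore those of the arrays labelled iFoxA1Treg, and the comparisons among EncT, nFoxA1Treg and Treg are also given without them.

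**Figure D1:**
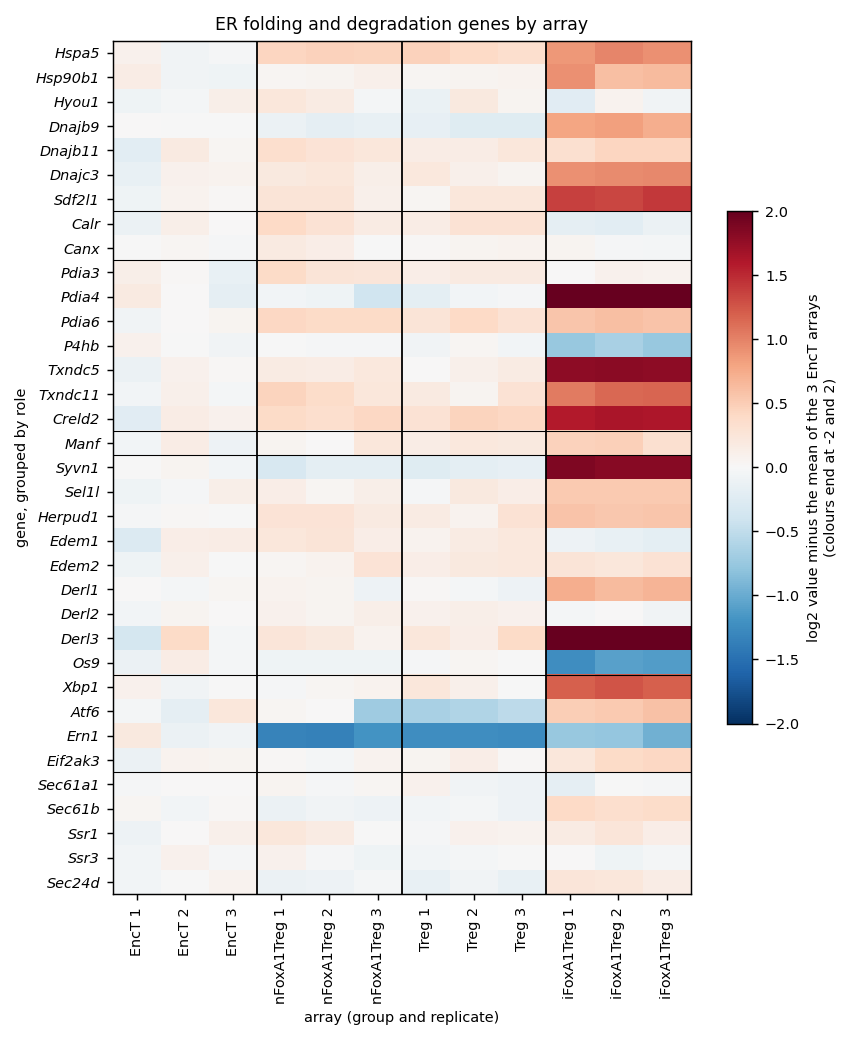
Normalized log2 values of the 35 tested genes (rows, grouped by role) on the 12 arrays (columns), each as the difference from the mean of the 3 EncT arrays. The columns labelled iFoxA1Treg hold the strongest colours, from -1.15 for Os9 to 2.77 for Derl3 in the group mean, and Ern1 is the row with the widest gap between EncT and both the nFoxA1Treg and Treg arrays.

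Values below are normalized log2 intensities, so a difference of 1 is a 2-fold difference, and levels are compared between groups for the same probe set only. A gene is said to rise or fall where limma's adjusted p, taken over all 12609 genes of a comparison, was under 0.05. Among the 35 tested genes, the highest of the 4 group means was on the arrays labelled iFoxA1Treg for 24, in nFoxA1Treg for 6, in EncT for 3 and in Treg for 2. Leaving out the arrays labelled iFoxA1Treg, EncT had the lowest of the other 3 means for 23 genes, nFoxA1Treg for 5 and Treg for 7. These counts of highest and lowest means were not taken over all genes. Differences from EncT were above 0 for 25 of the 35 genes in nFoxA1Treg and 24 in Treg, beside 49.3% of all genes tested in each. A difference somewhere among the 4 groups passed limma's F test for 30 of 35 genes (77.4% of all genes tested). The 5 that did not pass were Canx, Hyou1, Sec61a1, Ssr1 and Ssr3. The SD between the 3 arrays of a group had a median over these genes of 0.099 for EncT, 0.058 for nFoxA1Treg, 0.062 for Treg and 0.049 for the arrays labelled iFoxA1Treg.

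Compared with encephalitogenic T cells, both kinds of T cell labelled regulatory held more Hspa5, Pdia6, Creld2 and Calr, by less than 1.5-fold, and less of the stress sensor transcript read by the brightest Ern1 probe set. The co-chaperone genes Dnajb11 and Sdf2l1 rose in nFoxA1Treg and were not called in Treg, where Dnajb9 fell. In nFoxA1Treg against EncT, 9 of the 35 genes rose and 2 fell, where 8.46% of all genes tested rose and 11.2% fell (19.6% in all). In Treg against EncT, 4 rose and 4 fell, against 6.23% and 10.3% of all genes (16.5% in all). The median difference of the 35 genes was 0.10 in the first comparison and 0.092 in the second, beside -0.0045 and -0.0038 over all genes tested. These comparisons share the EncT arrays, so their values stand side by side and are not independent of each other. Values of the groups did not overlap for 15 genes in the first (33.7% of all genes) and 14 in the second (33.3%). Without nFoxA1Treg replicate 1 the first count of 11 dropped to 6, and without Treg replicate 2 or 3 the second count of 8 dropped to 5 or 4. Fitted without the arrays labelled iFoxA1Treg, 8 genes rose and 2 fell in nFoxA1Treg, and 3 rose and 3 fell in Treg. The arrays measure bulk RNA, so fewer cells of a type and less RNA per cell cannot be told apart.

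**Figure D2:**
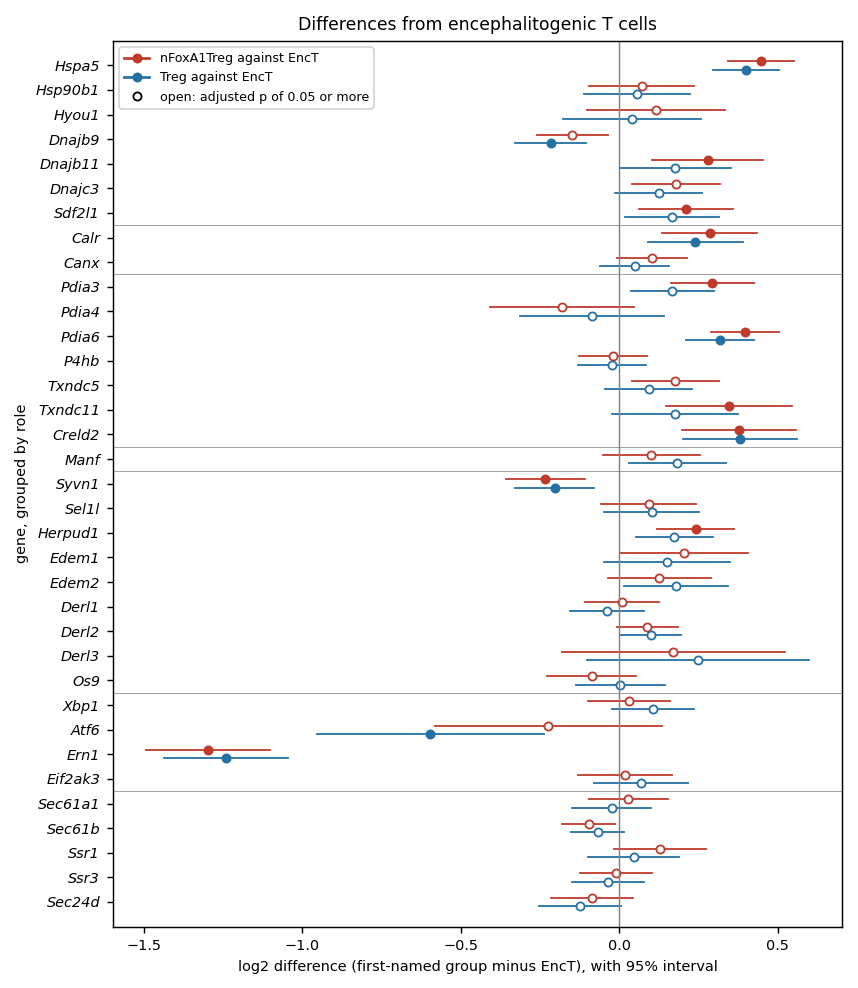
Log2 differences from EncT of the 35 tested genes (rows, grouped by role), with 95% intervals from limma, for nFoxA1Treg (red) and Treg (blue); filled points have an adjusted p under 0.05. Hspa5, Pdia6, Creld2 and Calr lie to the right of 0 in both colours, and Ern1 lies far to the left, at -1.30 and -1.24.

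Among the luminal chaperones and co-chaperones, Hspa5, the gene of BiP and the main Hsp70 of the ER, showed the clearest difference. Its values were 11.03, 10.89 and 10.93 on the EncT arrays, 11.38, 11.41 and 11.40 on the nFoxA1Treg arrays and 11.41, 11.35 and 11.29 on the Treg arrays. Every array of either regulatory group was above every EncT array. Hspa5 rose by 0.45 (SE 0.048, 1.36-fold, adjusted p = 0.000108) in nFoxA1Treg and by 0.40 (SE 0.048, 1.32-fold, adjusted p = 0.00036) in Treg. All 3 Hspa5 probe sets rose in both comparisons, by 0.44 to 0.47 and by 0.36 to 0.44. Dnajb11, a J-domain partner of BiP that binds unfolded proteins, had values of 8.68, 9.08 and 8.93 in EncT, 9.23, 9.18 and 9.12 in nFoxA1Treg and 9.04, 9.05 and 9.13 in Treg. It rose by 0.28 in nFoxA1Treg (adjusted p = 0.0285), and the Treg arrays overlapped the EncT arrays (0.18, adjusted p = 0.162). Sdf2l1, which forms a complex with the Dnajb11 product, rose by 0.21 in nFoxA1Treg (adjusted p = 0.0472) and differed by 0.17 in Treg (adjusted p = 0.121). The rises of Dnajb11 and Sdf2l1 were not called without any 1 of EncT replicates 1 and 3 and nFoxA1Treg replicates 1 and 2, with differences of 0.17 to 0.30 and 0.16 to 0.22, and Sdf2l1 was not called in the fit without the arrays labelled iFoxA1Treg (adjusted p = 0.0808). Dnajb9, another J-domain co-chaperone and a known XBP1 target, went the other way. Its values were 8.01, 8.0 and 7.99 in EncT, 7.88, 7.82 and 7.85 in nFoxA1Treg and 7.83, 7.76 and 7.75 in Treg, with no overlap between EncT and either group. Dnajb9 fell by 0.22 in Treg (SE 0.052, adjusted p = 0.0141) and differed by -0.15 in nFoxA1Treg (adjusted p = 0.0616). Its fall in Treg was not called without Treg replicate 2 (-0.21, adjusted p = 0.0572) or Treg replicate 3 (-0.20, adjusted p = 0.0592). The other members of this group, Hsp90b1, Hyou1 and Dnajc3, gave differences of 0.040 to 0.18 with no call.

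In the lectin cycle, which holds glycoproteins until they fold, Calr and Canx encode the soluble calreticulin and its membrane-bound relative calnexin. Calr had values of 10.71, 10.94 and 10.84 in EncT, 11.23, 11.13 and 10.99 in nFoxA1Treg and 10.98, 11.11 and 11.12 in Treg. No array of either group was as low as the highest EncT array. Calr rose by 0.28 in nFoxA1Treg (SE 0.069, adjusted p = 0.0124) and by 0.24 in Treg (SE 0.069, adjusted p = 0.0323). The first call was lost without nFoxA1Treg replicate 1 (0.23, adjusted p = 0.0595), and the second without EncT replicate 1 (0.18, adjusted p = 0.108), EncT replicate 3 (0.25, adjusted p = 0.0685), Treg replicate 2 (0.22, adjusted p = 0.116) or Treg replicate 3 (0.22, adjusted p = 0.115). In the fit without the arrays labelled iFoxA1Treg, Calr in Treg was not called (0.24, adjusted p = 0.0517). Canx was not called, with differences of 0.10 and 0.048.

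The disulfide isomerases and thioredoxin-domain proteins form and rearrange disulfide bonds. Of the 7 tested, 4 rose in nFoxA1Treg and 2 in Treg, where 8.46% and 6.23% of all genes tested rose. Pdia6 had values of 8.96, 9.05 and 9.09 in EncT, 9.45, 9.43 and 9.43 in nFoxA1Treg and 9.30, 9.43 and 9.33 in Treg, so that all 6 arrays of both groups were above EncT. It rose by 0.40 in nFoxA1Treg (SE 0.050, adjusted p = 0.000306) and by 0.32 in Treg (SE 0.050, adjusted p = 0.00161). Creld2, a secreted ER-stress gene with a thioredoxin-like motif, had values of 7.85, 8.24 and 8.17 in EncT, 8.47, 8.43 and 8.50 in nFoxA1Treg and 8.38, 8.53 and 8.50 in Treg. Again no values overlapped, and Creld2 rose by 0.38 in nFoxA1Treg (adjusted p = 0.00788) and by 0.38 in Treg (adjusted p = 0.00935). Pdia3, the isomerase that works with calnexin and calreticulin, had values of 11.05, 10.96 and 10.79 in EncT, 11.31, 11.18 and 11.18 in nFoxA1Treg and 11.06, 11.12 and 11.12 in Treg. It rose by 0.29 in nFoxA1Treg (SE 0.061, adjusted p = 0.00557), while the Treg difference of 0.17 was not called (adjusted p = 0.0793). Txndc11 rose by 0.35 in nFoxA1Treg (adjusted p = 0.0189) and differed by 0.18 in Treg (adjusted p = 0.222). Its rise was not called without any 1 of EncT replicates 1 and 3 and nFoxA1Treg replicates 1 and 2, at 0.30 to 0.33, and its other probe set differed by 0.046. P4hb, the gene of the classical protein disulfide isomerase, differed by -0.019 and -0.024, Pdia4 by -0.18 and -0.086 and Txndc5 by 0.18 and 0.092, with no call.

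**Figure D3:**
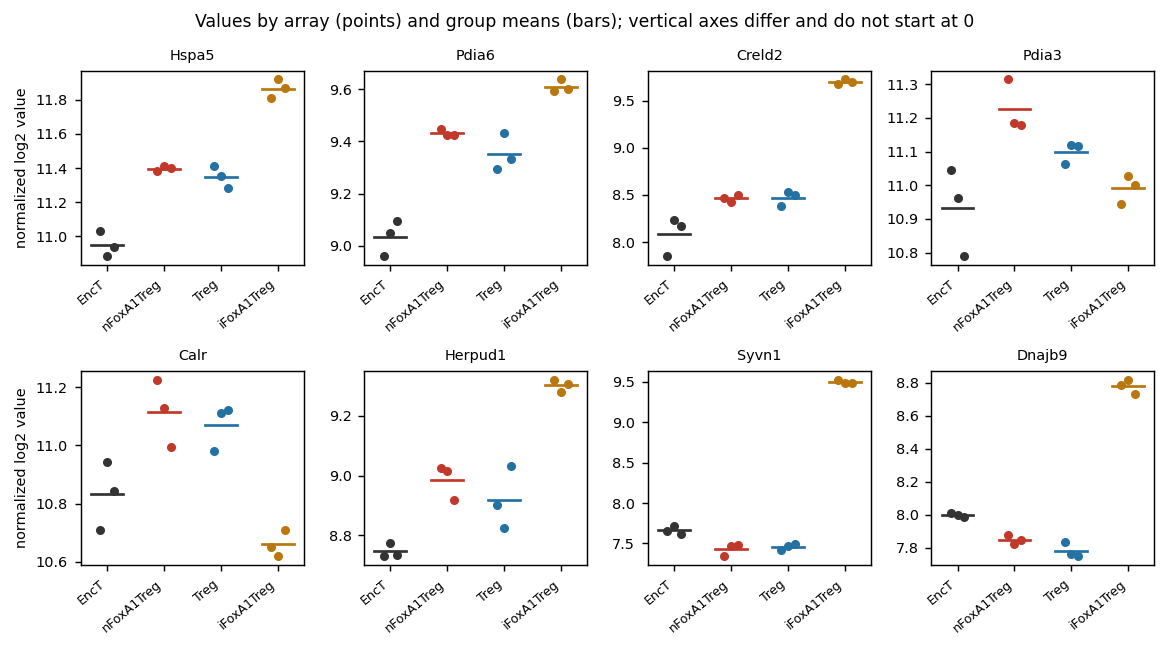
Normalized log2 values of 8 genes on each array (points, 3 per group) with group means (bars); each panel has its own vertical axis, which does not start at 0. Hspa5, Pdia6 and Creld2 sit lowest in EncT, Syvn1 and Dnajb9 sit above nFoxA1Treg and Treg in EncT, and Calr is the panel in which the arrays labelled iFoxA1Treg are the lowest.

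Of the 9 genes of ER-associated degradation, 1 rose and 1 fell in nFoxA1Treg and 1 fell in Treg. Over all genes tested, 8.46% rose and 11.2% fell in nFoxA1Treg and 10.3% fell in Treg, so these counts are near that share. Herpud1, which helps assemble the degradation complex, had values of 8.73, 8.77 and 8.73 in EncT, 9.02, 9.02 and 8.92 in nFoxA1Treg and 8.90, 8.82 and 9.03 in Treg. All arrays of both groups lay above EncT, and the rise of 0.24 was called in nFoxA1Treg (SE 0.056, adjusted p = 0.0105), while 0.17 in Treg was not (adjusted p = 0.0527). Its next brightest probe set gave 0.22 in nFoxA1Treg with no call (adjusted p = 0.0625). Syvn1, the gene of the ubiquitin ligase HRD1 at the core of the complex, had values of 7.66, 7.72 and 7.62 in EncT, 7.34, 7.47 and 7.48 in nFoxA1Treg and 7.42, 7.47 and 7.50 in Treg. Every EncT array was the higher one, and Syvn1 fell by 0.23 in nFoxA1Treg (SE 0.058, adjusted p = 0.0138) and by 0.20 in Treg (SE 0.058, adjusted p = 0.0304). The fall in nFoxA1Treg was lost without nFoxA1Treg replicate 1 (-0.19, adjusted p = 0.0657). In Treg it was called without EncT replicate 3 but not without any 1 of the other 5 arrays compared, at -0.22 to -0.18 with adjusted p of 0.0544 to 0.0955. In the fit without the arrays labelled iFoxA1Treg it was -0.20 and not called (adjusted p = 0.0692). The next brightest Syvn1 probe set was called in neither group, at -0.22 in nFoxA1Treg (adjusted p = 0.0597) and -0.11 in Treg (adjusted p = 0.41). Sel1l, Edem1, Edem2, Derl1, Derl2, Derl3 and Os9 were not called in either comparison, with differences between -0.087 and 0.25. The next brightest Sel1l probe set was called higher in nFoxA1Treg (0.42, adjusted p = 0.0165).

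Of the 3 sensor genes, Ern1, which encodes the kinase and nuclease IRE1alpha that splices Xbp1 mRNA, had the widest gap, and its probe sets disagreed. Its brightest probe set had values of 8.30, 7.99 and 8.03 in EncT, 6.77, 6.75 and 6.91 in nFoxA1Treg and 6.87, 6.87 and 6.86 in Treg. By that probe set all EncT arrays were more than 1 log2 unit above all others of these 3 groups, and Ern1 fell by 1.30 in nFoxA1Treg (SE 0.091, 2.46-fold, adjusted p = 6.81e-06) and by 1.24 in Treg (SE 0.091, 2.36-fold, adjusted p = 1.31e-05). The next brightest probe set pointed the other way, at 6.49, 6.04 and 6.12 in EncT, 7.05, 7.17 and 6.78 in nFoxA1Treg and 6.94, 6.44 and 6.50 in Treg. In its place it gave 0.78 in nFoxA1Treg (adjusted p = 0.0257) and 0.41 in Treg (adjusted p = 0.25), so no single direction holds for Ern1. Atf6 had values of 7.16, 7.01 and 7.42 in EncT, 7.23, 7.20 and 6.48 in nFoxA1Treg and 6.54, 6.59 and 6.66 in Treg. All Treg arrays lay below EncT, while nFoxA1Treg replicate 3 stood with the Treg arrays and the other 2 with EncT. Atf6 fell by 0.60 in Treg (SE 0.17, adjusted p = 0.0281) and differed by -0.22 in nFoxA1Treg (adjusted p = 0.40). The fall held only without EncT replicate 2 among the 6 fits that left out an array of this comparison, and elsewhere the difference was -0.63 to -0.49 with adjusted p of 0.0555 to 0.102. In a fit of all probe sets, 0 of 3 for Atf6 were called in Treg, at -0.60 to -0.21. Eif2ak3, the gene of the PERK kinase that slows translation, differed by 0.018 and 0.069, and Xbp1 by 0.030 and 0.11, with no call for either gene. In a fit of all probe sets, 1 of 4 for Xbp1, the dimmest, was called higher in Treg, with differences of 0.060 to 0.45 over the 4.

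**Figure D4:**
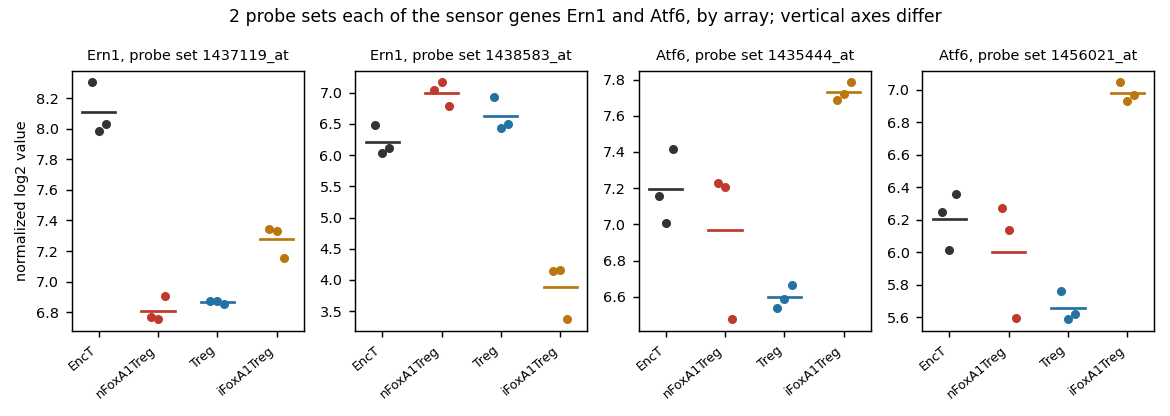
Normalized log2 values by array (points) and group mean (bars) of 2 probe sets each for Ern1 and Atf6; vertical axes differ and do not start at 0. Among EncT, nFoxA1Treg and Treg, EncT has the highest mean in the first Ern1 panel (8.11) and the lowest of these in the next, while the arrays labelled iFoxA1Treg lie below EncT in both, and the Atf6 panels both show nFoxA1Treg replicate 3 apart from the other 2 arrays of its group.

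Genes of entry into the ER and exit from it, which are Sec61a1 and Sec61b of the translocation channel, Ssr1 and Ssr3 of the translocon-associated complex and Sec24d of the export coat, had no call in either comparison, with differences of -0.12 to 0.13. Manf, a secreted factor released on ER stress, differed by 0.10 and 0.18 (adjusted p = 0.376 and 0.10).

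Markers of other cells also differed between these groups. In nFoxA1Treg against EncT, 4 of 7 macrophage markers fell, Cd14 by 0.49, as did 4 of 7 markers of dendritic cells and MHC class II, Cd74 by 2.17. All of these but Cd14 and Cd74, with Lyz2 and H2-Aa among them, had nFoxA1Treg means below the filter level and are given no size. A further 2 of 9 plasma cell markers fell, Ighm by 1.71 and Prdm1 by 0.57, as did 2 of 7 B cell and 2 of 10 T cell markers. The 2 B cell markers also had nFoxA1Treg means below the filter level, and 0 of 5 neuron markers were called. In Treg against EncT, 3 of 7 macrophage, 2 of 7 dendritic cell and MHC class II, 2 of 9 plasma cell and 1 of 10 T cell markers fell. Of these, 2 macrophage markers had Treg means below the filter level. There 0 of 7 B cell and 0 of 5 neuron markers were called. Over all genes tested, 11.2% fell in nFoxA1Treg and 10.3% in Treg, and these counts are a description. None of these lists had a marker that rose. The summed linear signal of the plasma cell list was 961 to 1143 in EncT, 660 to 773 in nFoxA1Treg and 718 to 743 in Treg, and that of the macrophage list 239 to 276, 108 to 154 and 152 to 175. For dendritic cells and MHC class II the sums were 707 to 883, 389 to 648 and 605 to 654, and for T cells 22276 to 24225, 21644 to 22470 and 22461 to 23037. Single genes carried much of 2 sums. Batf3 had means of 8.04 in EncT, 8.30 in nFoxA1Treg and 8.45 in Treg, beside 8.10, 5.93 and 7.06 for Cd74. Prdm1 (8.93, 8.35 and 8.30) and Irf4 (7.84, 7.72 and 7.73) were the brightest of the plasma cell list. These sums therefore do not measure a share of such cells. The part of other cells in the differences of the ER genes was not tested.

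Between the groups labelled nFoxA1Treg and Treg, no gene of the 35 passed the threshold, where 1 of 12609 genes did (0.00793%). At an unadjusted p under 0.05, 1 of the 35 genes (Atf6) and 3.71% of all genes tested stood out. Differences ran from -0.095 for Pdia4 to 0.37 for Atf6, and limma's adjusted p was 0.9997 for each of the 35. The interval of the difference was -0.057 to 0.15 for Hspa5, -0.028 to 0.19 for Pdia6 and -0.18 to 0.18 for Creld2, so differences as large as those of these genes from EncT lay outside it. For Txndc11, which was called against EncT in nFoxA1Treg and not in Treg, the interval was -0.028 to 0.37 around 0.17. Values did not overlap for Pdia3 and Os9, 2 of the 35 genes, beside 11.2% of all genes.

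The mean of the arrays labelled iFoxA1Treg lay above that of EncT for 25 of the 35 genes, beside 48.7% of all genes tested. Derl3, Pdia4, Syvn1, Txndc5 and Creld2 were over 3-fold above EncT. Against EncT, 24 genes rose and 4 fell, where 33.9% of all genes tested rose and 38.3% fell (72.2% in all). Against nFoxA1Treg 22 rose and 6 fell (35.2% and 39.2% of all genes, 74.4% in all), and against Treg 23 rose and 5 fell (35.2% and 38.4%, 73.6% in all). The share called, 28 of 35 or 80% in each comparison, was near that of all genes. The median differences were 0.42, 0.33 and 0.38, beside -0.024, -0.023 and -0.019 over all genes. With values as deposited, the median of all genes moved to -0.18, -0.17 and -0.15, and 20, 20 and 21 of the genes rose and 6, 9 and 7 fell. Edem2, Atf6, Ssr1 and Sec24d then lost their call against EncT, Pdia6 and Sec24d against nFoxA1Treg, and Dnajb11 and Manf against Treg. The same comparison with EncT then had 3265 rises and 5768 falls over all genes, beside 4280 and 4823 after quantile normalization. The 3 comparisons share the arrays labelled iFoxA1Treg, and values did not overlap for 27, 28 and 31 of the genes (73.4%, 77.7% and 77.7% of all genes).

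**Figure D5:**
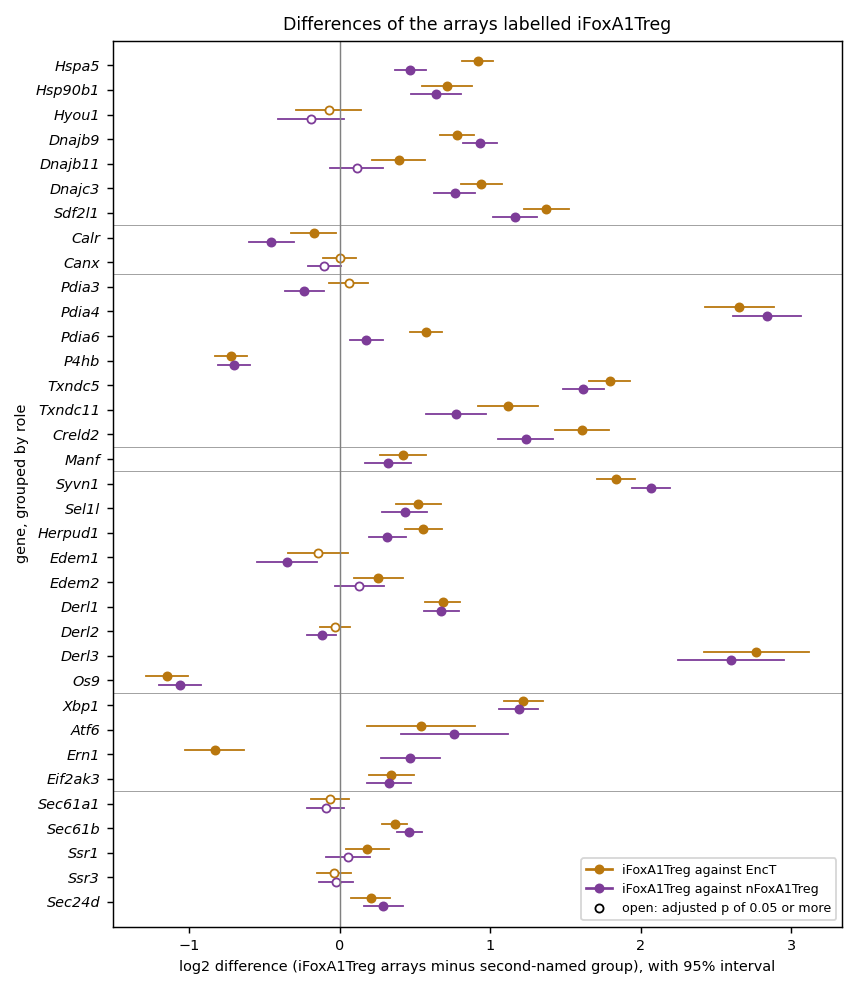
Log2 differences of the arrays labelled iFoxA1Treg from EncT (orange) and from nFoxA1Treg (purple) for the 35 tested genes, with 95% intervals from limma; filled points have an adjusted p under 0.05. Derl3 and Pdia4 lie between 2.60 and 2.84, Os9 lies at -1.15 and -1.06, and Ern1 lies on opposite sides of 0.

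Markers of other cells went with these rises. The summed signal of the plasma cell list was 29055 to 30877 on the arrays labelled iFoxA1Treg, and that of the B cell list was 21904 to 23956 there against 130 to 219 on the other 9 arrays. Among plasma cell genes, Mzb1, an ER chaperone of antibody assembly, had a mean of 13.61 against 5.05 to 5.24, and Jchain, the joining chain of polymeric antibody, had 11.95 against 2.28 to 2.62. Tnfrsf17, a receptor of mature plasma cells, stayed near the floor at 2.65, and Prdm1, the regulator that drives plasma cell differentiation, fell to 7.23 from 8.93 in EncT. The macrophage list summed to 14358 to 14778 against 108 to 276, and the T cell list to 5295 to 5574 against 21644 to 24225. The neuron list summed to 135 to 152 against 212 to 288. The list of dendritic cell and MHC class II markers summed to 16189 to 16867 against 389 to 883. Of its 7 tested markers 5 rose against EncT, which were Cd74, Ciita, H2-Aa, H2-Ab1 and H2-Eb1. Batf3 of that list fell, with a mean of 3.86 against 8.04 to 8.45 in the other groups, and Zbtb46 was not called. The part of these cells in the values of the ER genes was not tested.

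By role and by brightest probe set, 6 of the 7 luminal chaperones and co-chaperones rose on the arrays labelled iFoxA1Treg against EncT, where 33.9% of all genes tested rose. Hspa5 had values of 11.81, 11.92 and 11.87 there and rose by 0.92 (SE 0.048, 1.89-fold, adjusted p = 1.26e-09), and Sdf2l1, at 9.59, 9.56 and 9.64 against 8.13 to 8.29, rose by 1.37. Both were above every array of the other 3 groups. Dnajb9, at 8.79, 8.82 and 8.73, rose by 0.78 against EncT and by 0.93 and 0.999 against nFoxA1Treg and Treg. Hsp90b1 and Dnajb11 rose by 0.71 and 0.39, and Hyou1, a large Hsp70 relative, was not called by its brightest probe set (-0.074, adjusted p = 0.525). In a fit of all probe sets, 1 of 3 for Hyou1 was called higher against EncT, with differences of -0.40 to 0.63. Dnajc3, a co-chaperone of BiP, rose by 0.94 by its brightest probe set, differed by 0.012 (adjusted p = 0.859) by the next brightest and by 0.071 in the mean of all 5, and at least 1 of the 5 was called lower. The first of these probe sets was the brightest only through the arrays labelled iFoxA1Treg. On the EncT arrays it had 8.78, 9.0 and 8.99, where the next had 9.27, 9.21 and 9.22. The rise of Dnajc3 therefore rests on a probe set picked through the group where it was high. Calr, the soluble lectin, fell by 0.17 against EncT (adjusted p = 0.0382), 0.46 against nFoxA1Treg and 0.41 against Treg. The first of these was -0.077 (adjusted p = 0.354) with arrays centred on their medians, and it was not called without any 1 of EncT replicates 2 and 3 and iFoxA1Treg replicates 1 and 2, at -0.17 to -0.12.

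Folding enzymes split. Pdia4, a disulfide isomerase with an extra thioredoxin domain, had values of 9.73, 9.86 and 9.81 against 7.32, 7.15 and 6.96 in EncT, and rose by 2.66 (SE 0.11, 6.31-fold, adjusted p = 7.89e-11). Its other, dimmer probe set ranged from 3.77 to 4.67 over all 12 arrays and differed by 0.22 (adjusted p = 0.421). Txndc5, a thioredoxin-domain isomerase of secretory cells, had values of 9.51, 9.53 and 9.50 against 7.61, 7.81 and 7.74 and rose by 1.79. Creld2, at 9.68, 9.72 and 9.70, rose by 1.61. All 3 genes had no overlap between these groups. P4hb, at 10.05, 10.16 and 10.05 against 10.89, 10.80 and 10.74, fell by 0.72 (SE 0.050, 1.65-fold, adjusted p = 1.9e-08), and Pdia3 differed by 0.058 with no call (adjusted p = 0.404). Against nFoxA1Treg, Pdia3 fell by 0.23. Pdia6 rose by 0.57 against EncT and by 0.18 and 0.26 against nFoxA1Treg and Treg. Txndc11 rose by 1.12 against EncT by its brightest probe set and differed by 0.074 (adjusted p = 0.663) by the other. Manf rose by 0.42, 0.32 and 0.24 in the 3 comparisons. Pdia5, the disulfide isomerase below the filter, had values of 4.03, 3.62 and 3.58 on the arrays labelled iFoxA1Treg, 1.05 to 2.50 in nFoxA1Treg, 2.11 to 2.72 in Treg and 1.71, -7.47 and -0.89 in EncT, all near the floor of the arrays, and is given no fold.

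In ER-associated degradation, Derl3, the derlin of secretory cells, had values of 7.56, 7.47 and 7.70 on the arrays labelled iFoxA1Treg against 4.46, 5.19 and 4.76 in EncT. It rose by 2.77 (SE 0.16, 6.82-fold, adjusted p = 3.58e-09). Syvn1 had 9.53, 9.49 and 9.48 there and rose by 1.84, 2.07 and 2.04 against EncT, nFoxA1Treg and Treg. These arrays had no overlap with any other for either gene. Derl1, Herpud1 and Edem2 rose by 0.68, 0.56 and 0.26 against EncT. By its brightest probe set Derl2 was not called against EncT and fell by 0.12 and 0.13 against nFoxA1Treg and Treg. Both falls were lost with arrays centred on their medians. The fall against nFoxA1Treg was also lost without any 1 of nFoxA1Treg replicates 1 and 3 and iFoxA1Treg replicates 1 and 3. The fall against Treg was lost without Treg replicate 2 or iFoxA1Treg replicate 3. In a fit of all probe sets, 1 of 2 for Derl2 was called lower against EncT, with differences of -0.35 to -0.032. Os9, a lectin that hands misfolded glycoproteins to the ligase, had 8.18, 8.34 and 8.30 against 9.31, 9.57 and 9.39 in EncT and fell by 1.15 (SE 0.065, 2.22-fold, adjusted p = 2.47e-09). Sel1l, the ligase's adaptor, rose by 0.52, 0.43 and 0.42 against EncT, nFoxA1Treg and Treg by its brightest probe set, while the next brightest gave 0.025, -0.39 and -0.20. Edem1, a lectin of the same pathway, fell by 0.35 against nFoxA1Treg and 0.29 against Treg. With its other probe set the first was -0.12 and not called (adjusted p = 0.149), and the latter turned to 0.034.

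Among the stress regulators, Xbp1, the transcription factor activated by IRE1alpha, had values of 11.32, 11.38 and 11.31 against 10.20, 10.05 and 10.10 in EncT. It rose by 1.22 against EncT, 1.19 against nFoxA1Treg and 1.11 against Treg, and the arrays labelled iFoxA1Treg were above all others on each of its 4 probe sets. These values do not show how much Xbp1 mRNA was spliced. Atf6, at 7.69, 7.72 and 7.78, rose by 0.54, 0.76 and 1.13, and Eif2ak3 rose by 0.34, 0.33 and 0.27. By its brightest probe set Ern1 lay between the groups, at 7.34, 7.33 and 7.15, and fell by 0.83 against EncT but rose by 0.47 and 0.41 against nFoxA1Treg and Treg, while its next brightest probe set, at 4.14, 4.16 and 3.37, lay below every other array. The mean of that probe set on these arrays was under the filter level, so it is given no size here. Sec61b and Sec24d of entry and export rose by 0.37 and 0.20 against EncT. Ssr1 rose by 0.18 (adjusted p = 0.0252), a call lost without EncT replicate 1 or iFoxA1Treg replicate 2, and Sec61a1 and Ssr3 were not called by their brightest probe sets. In a fit of all probe sets, 4 of 6 for Sec61a1 were called lower against nFoxA1Treg, down to -0.87, and 4 of 6 against Treg, down to -0.90. Ssr3 was called against nFoxA1Treg and Treg, at 0.22 in each, with its other probe set.

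The 36 genes have 87 probe sets, and 22 genes have several that passed the filter. Significant changes in opposite directions among the probe sets of a gene were found for 1 gene (Ern1) in nFoxA1Treg against EncT and for 0 in Treg against EncT and in nFoxA1Treg against Treg. They were found for 4, 4 and 3 genes on the arrays labelled iFoxA1Treg when set against EncT (Dnajc3, Canx, Sel1l and Sec61a1), nFoxA1Treg (Dnajc3, Sel1l, Ern1 and Ssr1) and Treg (Dnajc3, Sel1l and Ern1). Beside Hspa5, all 3 probe sets of Calr rose in nFoxA1Treg against EncT, by 0.24 to 0.28, while 1 of 3 was called in Treg against EncT, with differences of 0.24 to 0.25.

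Set beside the promoter motifs, 11 tested genes held ERSE or ERSE-II, as did 0.155% of all promoters, and 19 tested genes with a promoter held neither. Of the 11, 6 rose and 1 (Syvn1) fell in nFoxA1Treg against EncT, with a median difference of 0.24, and 4 rose and 1 fell in Treg against EncT, with a median of 0.18. Of the 19, 3 rose and 1 fell (median 0.030) and 0 rose and 2 fell (median 0.069). Over all genes tested, 8.46% rose and 11.2% fell in the first comparison, and 6.23% and 10.3% in the other. The 19 include Txndc5, Txndc11 and Sec24d, which hold TGACGTGG, and Txndc11 was among the 3 that rose. Syvn1 has the motif in the same orientation as Hspa5 and Pdia6. Its fall in both comparisons was called by its brightest probe set alone. On the arrays labelled iFoxA1Treg against EncT, 9 rose and 1 (Calr) fell of the 11, and 12 rose and 3 fell of the 19, where 33.9% of all genes rose and 38.3% fell. These counts describe the genes and were not tested.

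Outside the 36 genes, a list of 120 further genes of the ER had 111 on the array and 109 tested. In nFoxA1Treg against EncT, 19 of the 109 rose and 10 fell (median 0.0034), and in Treg against EncT 10 rose and 13 fell (median 0.016). Over all genes tested, 8.46% rose and 11.2% fell in the first and 6.23% and 10.3% in the other. Ppp1r15a, which reverses the translation block set by PERK, rose by 1.03 (adjusted p = 1.61e-05) and 0.86, and Atf4, the transcription factor of that branch, rose by 0.65 and 0.54. Their EncT arrays, at 6.01 to 6.27 and 9.0 to 9.17, lay below all others of the 3 groups. Fam8a1, a partner of HRD1, fell by 1.16 and 1.17. Of 11 genes of the oligosaccharyltransferase, which puts glycans on new proteins, 5 rose and 0 fell in nFoxA1Treg and 3 rose and 0 fell in Treg. Of 23 genes of stress sensing and co-chaperones 6 rose and 2 fell, and 4 rose and 2 fell. The other sublists had 3 rises and 0 falls of 17 tested genes of the export coat and retrieval, 0 and 2 of 14 oxidoreductases, 2 and 3 of 16 genes of degradation and ubiquitin, 2 and 1 of 11 of glycan trimming and 1 and 2 of 17 of signal recognition and translocation in nFoxA1Treg. Of the 109 genes, 0 were called between nFoxA1Treg and Treg.

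On the arrays labelled iFoxA1Treg the wider list moved both ways, with 38 rises and 47 falls against EncT, 38 and 46 against nFoxA1Treg and 43 and 44 against Treg, and medians of -0.047, -0.051 and -0.024. Over all genes tested, 33.9% rose and 38.3% fell in the first, 35.2% and 39.2% in the next and 35.2% and 38.4% in the last. Those with the smallest adjusted p against EncT were Fkbp11, a prolyl isomerase of secretory cells that also stands in the plasma cell marker list, which rose by 3.69, Ero1b, an oxidase that recharges disulfide isomerases, which rose by 2.38, and Dnajc1, a J-domain membrane protein, which fell by 1.66. Edem3, a mannosidase of degradation, rose by 1.66 against nFoxA1Treg and 1.68 against Treg.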

How the data were processed

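Per the submitters' processing notes PLIER was used, an Affymetrix algorithm that turns probe signals into 1 value per probe set. Which version and settings were used, and whether arrays were normalized, is not given in the sources used here. The deposited log2 values of 45037 probe sets on 12 arrays were used, and arrays had medians of 4.64 to 4.84. Because the medians spanned more than 0.2, quantile normalization followed. The filter kept the brighter 60% of probe sets (mean above 4.05). A gene's value is that of the brightest such probe set annotated to that symbol alone in the platform annotation. Differences were fitted with limma 3.58.1 in R 4.3.3 (4 group means, 8 residual degrees of freedom, eBayes with an intensity trend), 6 comparisons, two-sided, with Benjamini-Hochberg adjustment over 12609 genes within each. Errors are limma's SE, or SD between arrays. No label says whether the 3 replicates of a group are separate mice or cultures; p-values then reflect only the spread between these samples, which may be technical. The genes and lists were chosen with earlier results of these data known. All 36 genes are described, those that were called or bright array by array; from the wider ER list the 3 called genes of smallest adjusted p in each comparison are named, and Fkbp11, Mzb1 and other markers belong to lists for 6 cell types. Motifs were searched in RefSeq promoters (GRCm38.p6). The fits were tested on simulated data.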

Additional observations from a re-analysis of the deposited data

How the results depend on the processing

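Every comparison was refitted with values as deposited, median centring, no filter, a stricter filter (the upper 40% of probe sets), log2(value + 16), the mean of a gene's probe sets, its second brightest probe set, only the arrays of the groups compared, array weights, no intensity trend, and each array left out in turn. The number of genes called in nFoxA1Treg against EncT, 11 of 35, became 5 with only the arrays of the 2 groups, 17 with array weights, and 6 to 14 when an array was left out. In Treg against EncT, 8 became 5 with the mean of probe sets, 4 with only the arrays of the 2 groups, 18 with array weights, and 4 to 10 when an array was left out. The counts of the other 4 comparisons stayed within 1.5 times under these settings. Over all genes, 2474 calls in nFoxA1Treg against EncT became 1229 and 4721 with only these arrays and with weights, and 1513 and 1518 without nFoxA1Treg replicates 1 and 2. In Treg against EncT, 2084 became 1140 and 4196, and 1016 and 1069 without Treg replicates 2 and 3. The latter comparison had 785 rises and 1299 falls, beside 429 and 1293 with median centring and 535 and 1417 as deposited. The single call between nFoxA1Treg and Treg became up to 11, with 0 of the 35 genes among them.

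Hspa5, Pdia3 and Pdia6 were called in nFoxA1Treg, and Hspa5 and Pdia6 in Treg, under every setting listed. Creld2 was lost only with the arrays of the 2 groups alone (adjusted p = 0.0522 and 0.0539). Pdia3, Pdia6 and Creld2 have no other probe set above the filter level. For them the mean and second brightest settings read the same probe set again, so no further probe set bears on these calls. Of all values of single genes under the alternatives, 3587 kept their side of the threshold, 66 gained and 112 lost a call, and 15 called in the main or the other setting changed direction, in every case with other probe sets. Sign changes of values called in neither setting are counted as keeping their side. With the second brightest probe set, Ern1 gave 0.78 and 0.41 in nFoxA1Treg and Treg against EncT, and Canx gave 0.14 on the arrays labelled iFoxA1Treg against EncT. Against nFoxA1Treg those arrays gave -0.077 (mean) and -0.39 (second brightest) for Sel1l, -0.75 and -3.11 for Ern1, and 0.22 (second brightest) for Ssr3. Against Treg they gave -0.020 and -0.20 for Sel1l, -0.67 and -2.74 for Ern1 (sizes that are not exact, since the second brightest Ern1 probe set lies below the filter level there), 0.11 and 0.22 for Ssr3, and 0.034 (second brightest) for Edem1. The cause of these disagreements was not tested.

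The titles give replicate numbers, and same-numbered arrays did not deviate together in every pair of groups. Over 18 same-numbered pairs the correlation of deviations from the group means was -0.163 to 0.167. It was above 0.1 for 2 pairs, both of EncT with Treg, where numbers 1, 2 and 3 gave 0.167, 0.130 and 0.090. Pairs with different numbers gave -0.128 to 0.180 over all groups. With a replicate block the 6 counts were 10, 8, 0, 27, 28 and 28. An alternative added after seeing the data, EncT, nFoxA1Treg and Treg arrays alone from normalization on, gave 10 and 6 calls against EncT. In that fit Dnajc3 was read by another probe set and its uncalled differences from EncT turned to -0.16 and -0.17. With 3 arrays per group and no depth measure, the number of arrays limits the precision, and values near the floor have no order.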
